A study of Mus musculus with 22 samples.

Results

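Heat shock and chaperone genes were followed across oocyte growth and early development in mice, where Setd2 was lost or kept. The members are the genes whose symbols begin as those of the HSP70, HSP90, HSP60, HSP10 and small heat shock families, the A, B and C classes of J-domain proteins and the subunits of the chaperonin TRiC, with Bag1 to Bag6 and the transcription factors Hsf1, Hsf2, Ddit3 and Atf4. All 4 deposited tables listed 94 such genes among 22592 symbols. Setd2 encodes the methyltransferase that places trimethylation on lysine 36 of histone H3, and Dnmt3l encodes a cofactor of de novo DNA methylation in the oocyte. RNA-seq libraries were made with a Smart-seq2 protocol. Growing oocytes of postnatal day 7 (P7) were labelled Setd2-/- (KO) or Setd2+/- (Con), with 2 libraries each. Full-grown oocytes were labelled Setd2_KO or Setd2_Con, with 2 libraries each, as were zygotes. At 48 h the Setd2_KO samples were labelled 1C and the Setd2_Con samples 2C, with 2 libraries each, so cell stage and genotype cannot be told apart there. The 8-cell embryos grew after spindle transfer, in which the spindle and chromosomes of one oocyte were placed in an enucleated oocyte, between Setd2mNull and control, before fertilisation by sperm injection; they were labelled Setd2-/- or Setd2+/-, with 2 libraries each. The labels do not say whether that genotype belongs to the oocyte that gave the spindle or to the one that received it. The remaining 2 libraries were full-grown oocytes labelled Dnmt3l_KO and Dnmt3l_Con, with 1 library each. Adult females were 8 weeks old. Full-grown oocytes were taken 48 h after the hormone PMSG, and zygotes 30 h after hCG, which follows PMSG. The 48 h of the later samples stands in their titles, with no starting point given. The series describes the Setd2 loss as maternal. How the allele was removed and how many animals or cells were pooled per library is not given in the sources used here.

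Chaperones bind proteins that are not yet folded, or no longer folded, and keep them from aggregating. An HSP70 binds and releases its client in a cycle of ATP hydrolysis, in which J-domain proteins bring the client and start hydrolysis, and nucleotide exchange factors, such as the HSP110 and BAG proteins, open the cycle again. HSP90 acts later on kinases, receptors and other clients, TRiC is a closed chamber that folds actin and tubulin, HSP60 with HSP10 does the like inside mitochondria, and BiP (Hspa5) with its J-domain partners serves the endoplasmic reticulum. Heat shock factors switch on the cytosolic genes through heat shock elements, and the unfolded protein response switches on the reticulum's genes through factors such as ATF6, XBP1, ATF4 and CHOP (Ddit3). In the mouse, the oocyte stops transcription once full-grown, the zygote runs largely on stored RNA, and genome activation at the 2-cell stage replaces that store. Heat-inducible Hspa1a and Hspa1b are known among the first genes that mouse embryos transcribe, and Hsf1 is known as a maternal-effect gene.

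Values are FPKM (fragments scaled by transcript length and by the mapped fragments of the library), so levels of different genes can be set side by side within a library. By the smallest steps between low values, depth lay between about 3.07 M and 21.8 M mapped fragments per library, which puts 1 fragment in a transcript of 2000 nt at 0.023 to 0.163 FPKM. Changes are differences of log2(FPKM + 1); the added 1 shrinks the change of weakly expressed genes. They were tested with limma in genes that reached 1 FPKM in 2 or more libraries of their table. That filter kept 74 of 94 members in P7 oocytes, 78 in the table of 12 libraries that holds full-grown oocytes, zygotes and 48 h samples, and 72 in 8-cell embryos. 66 members passed in all 3 tables, and 7 reached 1 FPKM in no library of the series. The median change of all genes tested was -0.19 in full-grown oocytes and 0.43 at 48 h (KO against Con), -0.34 between control zygotes and control 48 h embryos, and 0.20 and 0.36 for the differences of steps described last. Changes are therefore given relative to the median of all genes in the same comparison. The standard error (SE) and every adjusted p are from limma on the values as deposited, before that median was subtracted. A printed p therefore does not test the printed change, and can be smaller or larger than that change and its SE would give. Means carry the SD of n = 2 libraries. No label says that replicate libraries came from separate animals, so these p-values measure only the spread between libraries, which may be technical.

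Setd2 itself was at 0.968 and 0.927 FPKM in KO full-grown oocytes, against 4.75 and 4.35 FPKM in Con oocytes, at 1.30 and 1.73 FPKM in KO zygotes, against 12.1 and 8.85 FPKM in Con zygotes, and at 1.42 and 1.74 FPKM in KO samples of 48 h, against 53.2 and 43.0 FPKM in Con embryos. It did not pass the test in P7 oocytes or in 8-cell embryos, where the KO libraries held 15.4 and 18.1 FPKM, against 18.2 and 17.1 FPKM in the Con libraries. The 8 oocyte markers (zona pellucida genes and germline factors) were above 0 in every oocyte, zygote and 48 h library. Their summed level was 5736 and 8156 FPKM in KO zygotes, against 3209 and 3358 FPKM in Con zygotes. Bmp15 went against that sum, at 1036 and 998 FPKM in KO zygotes and 1294 and 1711 FPKM in Con zygotes. So did Kit, at 38.9 and 28.0 FPKM in KO zygotes and 70.7 and 63.0 FPKM in Con zygotes. At 48 h the oocyte markers summed to 7467 and 6637 FPKM in KO samples, against 179 and 182 FPKM in Con embryos. Of the 9 granulosa and cumulus markers, 4 and 3 were at 0 in the KO samples of 48 h, against 7 and 7 in Con embryos, with summed levels of 21.6 and 23.8 FPKM in KO and 0.857 and 0.444 FPKM in Con. Most of that KO sum was Cyp19a1 at 15.1 and 10.6 FPKM and Fshr at 4.21 and 10.8 FPKM, while Inha was at 0 and 0.15 FPKM. The part of these markers in the results was not tested.

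The members together took the largest share of transcript signal in 8-cell embryos and the smallest in control zygotes. They made up 1.63 and 1.64% of summed FPKM in KO P7 oocytes, against 1.57 and 1.56% in Con P7 oocytes. In full-grown oocytes the share was 0.875 and 0.984% in KO and 0.838 and 0.898% in Con, and in zygotes 0.817 and 0.979% in KO and 0.757 and 0.736% in Con. At 48 h it was 0.93 and 0.97% in KO samples, against 1.25 and 1.21% in Con embryos, and in 8-cell embryos 2.61 and 2.58% in KO, against 3.01 and 2.91% in Con. The genotypes overlapped in full-grown oocytes and did not overlap at the other 4 stages, and the KO share lay above the Con share in zygotes and below it at 48 h. Within a stage the members keep a steep order of levels. In Con 8-cell embryos Hspa8, the constitutive HSP70, stood at 3433 and 3186 FPKM and Hsp90ab1, the constitutive HSP90, at 1862 and 1742 FPKM, while the germ cell HSP70 Hspa2 stood at 14.7 and 31 FPKM. Tables were normalized separately, so levels in P7 oocytes, in 8-cell embryos and in the 12 libraries are set side by side without a test.

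**Figure D1:**
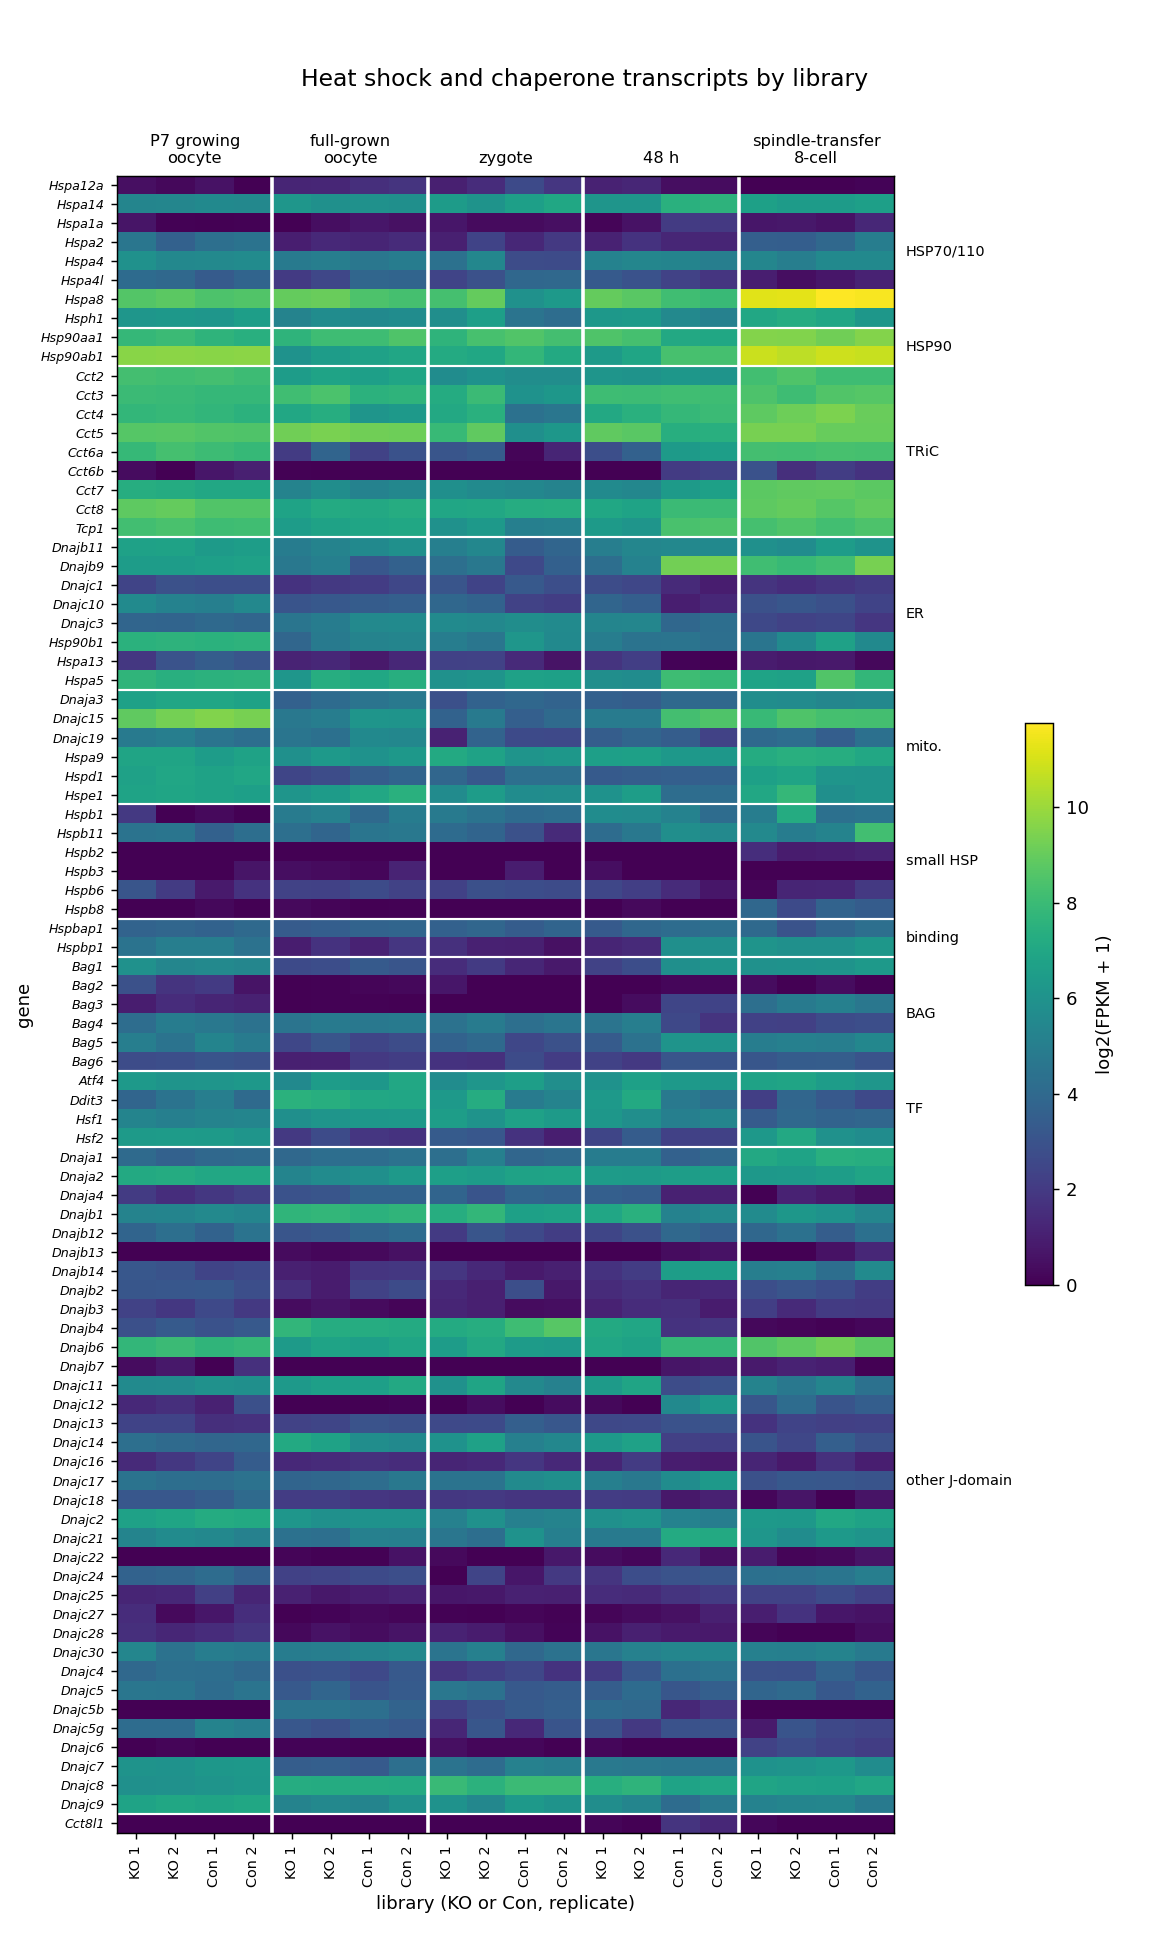
Each row is 1 of the 87 members that reached 1 FPKM in at least 1 of the 20 Setd2 libraries, grouped by role, and each column is a library (KO left of Con at each stage); colour is log2(FPKM + 1). P7 oocytes, the 3 stages in the middle and 8-cell embryos come from 3 tables normalized separately. The Con libraries of 48 h stand apart from both the KO libraries of 48 h and the zygotes in rows such as Dnajb9, Dnajb4 and Cct6a.

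Promoter windows from RefSeq (GRCm38.p6) were found for 77 of the 94 members, in 97 windows. The other members, among them Hspa8, Hsp90aa1 and Cct4, had no window and were not searched. The factors named above bind known sequences, so 3 motifs were counted on both strands in the 250 bases upstream of each start site. A heat shock element of 3 units, GAA and TTC in turn with 2 bases of any kind between neighbours, lay in 4 of the 97 member windows (4.12%), of Dnajb6, Hspd1 and Hspe1, and in 0.466% of all 32851 windows. The Hspe1 window also holds an exon of Hspd1, so the same bases may be counted for both genes. Its core of 2 units, GAANNTTC or TTCNNGAA, which each longer match contains, lay in 19 member windows (19.6%) and in 12.8% of all windows. The endoplasmic reticulum stress element, CCAAT and CCACG with 9 bases of any kind between them, lay in 3 member windows (3.09%), of Dnajc3, Hsp90b1 and Hspa5, and in 0.113% of all windows. These 4 stretches were chosen from results described next, and 3 of them share a motif. At 48 h Hspa5 fell in the KO, Dnajc3 and Hspe1 rose, and Hsp90b1 was not called. In zygotes the changes of Hspa5, Hsp90b1 and Dnajc3 were all negative, and only that of Hsp90b1 was called. Whether the motifs act in these samples was not tested. Capitals mark the matches, each strand is that of the gene, and 5′ is on the left. In Hspe1 (chr1:55088059-55088076, plus strand, 72 bases before the start site) a pair of matches overlap within the stretch. Hspa5 (chr2:34772025-34772043, plus strand, 47 bases before the start site) and Hspe1 are cut to the motif because an annotated exon lies over it. Hsp90b1 (chr10:86705510-86705694, minus strand, 66 bases before the start site) has 1 match on each strand, and Dnajc3 is at chr14:118937767-118937905 (plus strand, 27 bases before the start site).
Hspe1: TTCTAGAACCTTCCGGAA
Hspa5: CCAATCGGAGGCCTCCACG
Hsp90b1: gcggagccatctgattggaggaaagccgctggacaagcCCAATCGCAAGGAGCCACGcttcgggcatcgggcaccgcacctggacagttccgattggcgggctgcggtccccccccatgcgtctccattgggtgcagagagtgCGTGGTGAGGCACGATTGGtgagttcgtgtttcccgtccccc
Dnajc3: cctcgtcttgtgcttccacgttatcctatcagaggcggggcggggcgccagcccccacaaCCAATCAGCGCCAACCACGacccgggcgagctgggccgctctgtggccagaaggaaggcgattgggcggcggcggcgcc

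In P7 growing oocytes limma called 0 of the 74 members tested, with 0.0834% of all genes called, 0.0741% higher and 0.00926% lower. An unadjusted p under 0.05 was found for 8 members and for 868 of all 10794 genes. Hsp90ab1 was at 810 and 830 FPKM in KO oocytes, against 809 and 843 FPKM in Con oocytes, and Hspa8 at 389 and 439 FPKM in KO, against 356 and 380 FPKM in Con. Hspa5 was at 205 and 168 FPKM in KO oocytes, against 185 and 191 FPKM in Con. The subunit Cct8 of TRiC, at 459 and 499 FPKM in KO and 378 and 371 FPKM in Con, did not overlap between the groups but missed the threshold (change 0.4 ± 0.13 SE, limma adjusted p = 0.532). Dnajc5g had the smallest adjusted p of the members, at 17.0 and 16.7 FPKM in KO and 37.7 and 31.6 FPKM in Con (-0.95 ± 0.23, limma adjusted p = 0.236). Dnajc16 (-1.21 ± 0.46) and Hspb6 (1.35 ± 0.51) were not called either. The median change of the members was 0.03, relative to that of all genes. Under the alternative with the replicate number as a block, 1 member was called lower.

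In full-grown oocytes few chaperone genes differed between the genotypes, and those that did belong to different compartments. Of the 78 members tested, 3 rose and 4 fell in the KO, which is 3.85% and 5.13% of them, against 2.02% and 4.89% of all genes (6.92% in either direction). Fewer cells of a type and less RNA per cell cannot be told apart in these samples, and FPKM shows only a transcript's share of its library. Dnajb9 (ERdj4), a J-domain partner of BiP, was at 25 and 32.8 FPKM in KO oocytes, against 8.22 and 11.5 FPKM in Con oocytes. It rose by 1.65 ± 0.38 (limma adjusted p = 0.0433). Dnajc14, a J-domain protein of the reticulum membrane, was at 141 and 106 FPKM in KO, against 52.7 and 46.5 FPKM in Con (1.48 ± 0.27, limma adjusted p = 0.0225). The TRiC subunit Cct4 was at 131 and 159 FPKM in KO, against 68.5 and 80 FPKM in Con (1.14 ± 0.21, limma adjusted p = 0.0278). In all of these the KO libraries lay above both Con libraries.

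The 4 that fell in KO full-grown oocytes were Hspa4l, Dnajc15, Hspd1 and Dnajc3. Hspa4l, a member of the HSP110 family, was at 2.95 and 4.58 FPKM in KO oocytes, against 13.9 and 13 FPKM in Con oocytes, and fell by 1.43 (SE 0.30, limma adjusted p = 0.0137). Dnajc15, a J-domain protein of the mitochondrial import motor, was at 25.2 and 30.8 FPKM in KO, against 69.7 and 66.1 FPKM in Con, and Hspd1, the mitochondrial HSP60, at 4.43 and 5.67 FPKM in KO, against 10.1 and 12.6 FPKM in Con. Hspe1, the HSP10 lid of the same chamber, had 68.3 and 86.9 FPKM in KO and 131 and 176 FPKM in Con, and missed the threshold (-0.78 ± 0.29, limma adjusted p = 0.0705). The 6 members listed as mitochondrial chaperones, a list without Dnajc11, had a median change of -0.81, against -0.01 for all members. Dnajc3 (P58IPK), a cochaperone of BiP and inhibitor of PERK, was at 22.8 and 29.3 FPKM in KO, against 44.6 and 48.5 FPKM in Con. Among 26 other genes of reticulum folding and the unfolded protein response 0 rose and 2 fell, Creld2 (132 and 162 FPKM in KO, 353 and 314 FPKM in Con) and Sdf2l1 (5.55 and 9.69 FPKM in KO, 16 and 25.1 FPKM in Con). Of 22 cochaperones of HSP70 and HSP90 and prefoldin subunits tested, 0 rose and 1 fell, the kinase cochaperone Cdc37. The granulosa and cumulus markers summed to 34.5 and 29.6 FPKM in KO full-grown oocytes, against 40.1 and 36.6 FPKM in Con. In each KO library 3 of 9 were at 0, and in each Con library 0 of 9. Inha was at 0.816 and 0.519 FPKM in KO, against 14.8 and 15.1 FPKM in Con. Fshr went the other way, at 9.49 and 8.25 FPKM in KO, against 0.415 and 0.18 FPKM in Con. So did Cyp19a1, at 23.4 and 19.6 FPKM in KO, against 15.4 and 13.6 FPKM in Con. The part of these markers in the result was not tested. Leaving out KO replicate 1, Con replicate 1 or Con replicate 2 ended all 7, and leaving out KO replicate 2 left 1, Hspa4l. Rescaling by median ratios gave 4 members higher and 1 lower, with 391 and 323 among all genes. A fit of these 4 libraries alone gave 6 members higher and 15 lower, with 716 and 2071 among all genes.

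Control samples show the course that the KO is set against. In control more members fell than rose between full-grown oocyte and zygote, and more rose than fell between zygote and 48 h embryo. How many members did both was not counted. The same 2 control zygote libraries enter both steps, with opposite sign, and also the comparison of KO and Con zygotes. These results are therefore not independent, and a deviation of those libraries would show in each. Between full-grown oocyte and zygote 6 members rose and 24 fell in control, which is 7.69% and 30.8% of 78, against 18.5% and 24.0% of all genes. Between zygote and 48 h embryo 37 rose and 23 fell in control, 47.4% and 29.5% of the members, against 33.4% and 42.7% of all genes (76.1% in either direction). The members' median change in this second step was 0.84 above that of all genes. 8 of 9 TRiC genes rose in it and 0 fell, and in the first step 0 rose and 6 fell. Cct6b is among those that rose, and among zygotes and 48 h samples it reached 1 FPKM only in control 48 h embryos. The filter may have kept it through that group alone, so its call is no independent support. Hspa8 stood at 351 and 309 FPKM in control full-grown oocytes, 60.2 and 80.7 FPKM in control zygotes and 285 and 245 FPKM in control 48 h embryos. Hspa4, an HSP110 exchange factor, ran the same way, at 24.2 and 29.5, then 5.56 and 5.37, then 38.1 and 31.5 FPKM. Dnajb9 was at 8.22 and 11.5 FPKM in control full-grown oocytes, 5.05 and 11.2 FPKM in zygotes and 597 and 626 FPKM at 48 h, the member with the largest rise in the second step (6.49 ± 0.38, limma adjusted p = 8.03e-08). Dnajb4, a cytosolic J-domain protein, ran the other way, at 153 and 142 FPKM, then 274 and 413, then 2.33 and 2.62 FPKM, and had the largest fall, by 6.27 (SE 0.23, limma adjusted p = 2.92e-09).

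Several members were near 0 in control zygotes and well above it in control 48 h embryos. Dnajc12, a cochaperone of the aromatic amino acid hydroxylases, was at 47.2 and 74.8 FPKM in control 48 h embryos, against 0 and 0.306 FPKM in control zygotes, and Dnajb14, a J-domain protein of the reticulum membrane, at 92.4 and 93.3 FPKM at 48 h. Hspbp1, an exchange factor of HSP70, was at 55.8 and 56.8 FPKM and Bag1, another, at 55.9 and 66.5 FPKM in control 48 h embryos. Heat-inducible Hspa1a was at 3.09 and 2.92 FPKM in control 48 h embryos, against 0.253 and 0.392 FPKM in control zygotes, and Hspa1b at 0.689 and 0.817 FPKM, against 0.151 and 0.223 FPKM. These neighbours are nearly identical in sequence, so their fragments may be split between them; Hspa1a passed the test and Hspa1b was not tested. Bag3, the exchange factor induced with them under heat stress, was listed at 0 in all 4 zygote libraries and at 4.51 and 4.16 FPKM in control 48 h embryos. Among zygotes and 48 h samples, Bag3, Dnajc12 and Hspa1a reached 1 FPKM only in control 48 h embryos. The filter may have kept them through that group alone, so their calls against other groups are no independent support. Among those that fell were Dnajc14, Dnaja4, Dnajc11, Bag4 and Hspa4l. Of the 22 cochaperones tested 12 rose and 8 fell, with the HSP90 immunophilin Fkbp4 at 102 and 104 FPKM in control 48 h embryos and 1.47 and 2.52 FPKM in control zygotes.

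In KO zygotes, chaperone genes stood above control more often than below. Of 78 members 22 rose and 9 fell, 28.2% and 11.5% of them, against 18.5% and 13.1% of all genes (31.6% in either direction). Hspa8 was at 306 and 505 FPKM in KO zygotes, against 60.2 and 80.7 FPKM in Con zygotes (2.46 ± 0.25, limma adjusted p = 0.000103). Both exchange factors of the HSP110 family that are widely expressed were higher as well. Hspa4 was at 19.9 and 41.7 FPKM in KO zygotes, against 5.56 and 5.37 FPKM in Con zygotes (2.19 ± 0.30, limma adjusted p = 0.000592). Hsph1 was at 55.3 and 97.1 FPKM in KO, against 21.6 and 17.2 FPKM in Con (1.86 ± 0.28, limma adjusted p = 0.000874). Their relative Hspa4l differed the other way, at 4.36 and 6.63 FPKM in KO and 14 and 14.6 FPKM in Con, and fell by 1.27 (SE 0.30, limma adjusted p = 0.00894). Neither cytosolic HSP90 passed the test. Hsp90aa1, the inducible form, had 200 and 324 FPKM in KO and 370 and 296 FPKM in Con, and Hsp90ab1 had 142 and 128 FPKM in KO and 220 and 138 FPKM in Con.

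Of the 9 TRiC genes, 5 were higher and 0 lower in KO zygotes, with a median change of 1.02. Cct4 was at 137 and 175 FPKM in KO zygotes, against 19.8 and 23.4 FPKM in Con zygotes (2.78 ± 0.21, limma adjusted p = 3.36e-05). Cct5 was at 238 and 473 FPKM in KO, against 56.8 and 74.4 FPKM in Con (2.34 ± 0.28, limma adjusted p = 0.000248), and Cct6a at 7.56 and 9.3 FPKM in KO, against 0.133 and 1.33 FPKM in Con. Cct3 and Tcp1 were also called higher. Cct2 (51.4 and 61.8 FPKM in KO, 53.1 and 53.1 FPKM in Con) and Cct8 (122 and 131 FPKM in KO, 153 and 157 FPKM in Con) did not pass, nor did Cct7. TRiC joins 8 different subunits in each ring, and transcripts of 5 were called and of 3 were not. Whether the changes of the subunit genes differ from each other was not tested. Cct6b, a testis form of the Cct6 subunit, was listed at 0 in all 4 zygote libraries.

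**Figure D2:**
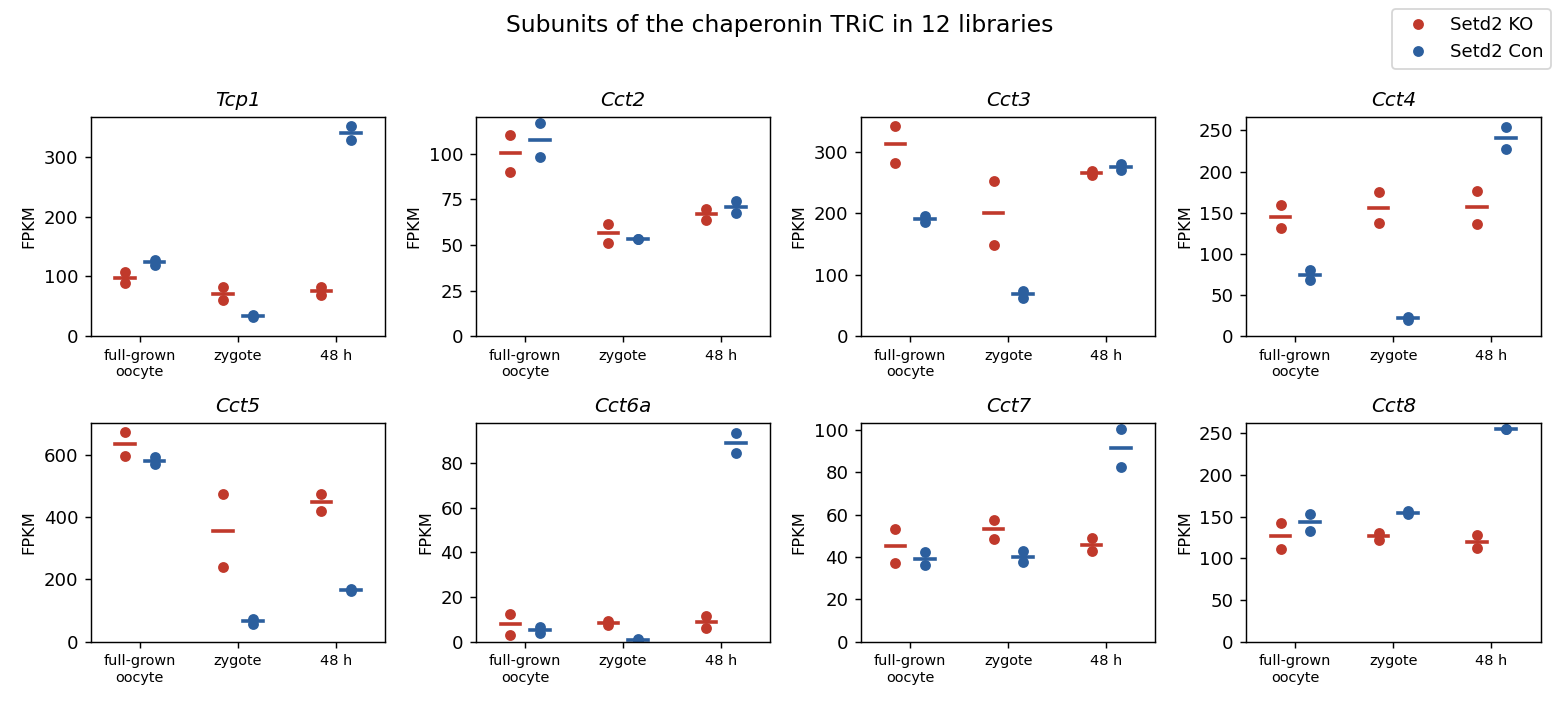
FPKM of 8 subunit genes of TRiC in KO (red) and Con (blue) full-grown oocytes, zygotes and 48 h samples; points are the 2 libraries of a group and bars their mean. Cct4 and Cct5 dip in Con zygotes and not to that depth in KO zygotes, and Cct6a, Tcp1 and Cct8 are highest in Con at 48 h.

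Of the 8 members listed as reticulum chaperones, 4 were higher and 1 lower in KO zygotes. That list leaves out the J-domain proteins Dnajc14 and Dnajb14 of the reticulum membrane. Dnajc14 was called higher, at 62.3 and 104 FPKM in KO and 33.4 and 42.7 FPKM in Con, and Dnajb14 was not called. Dnajb11 (ERdj3), a J-domain partner of BiP, was at 32.4 and 43 FPKM in KO zygotes, against 9.58 and 13.5 FPKM in Con zygotes (1.62 ± 0.25, limma adjusted p = 0.000962), and Dnajc10 (ERdj5), a disulfide reductase, at 14.4 and 12 FPKM in KO, against 3.95 and 3.32 FPKM in Con. Dnajb9 and Hspa13 were higher too. Hsp90b1 (GRP94), the HSP90 of the reticulum, was at 30.9 and 23.1 FPKM in KO, against 71.1 and 47.2 FPKM in Con, and fell by 1.10 (SE 0.32, limma adjusted p = 0.0254); this call and that of Dnajb9 were lost without KO replicate 2 or without Con replicate 1. Hspa5, which shares the motif printed above with Hsp90b1, was at 60.4 and 66 FPKM in KO and 106 and 103 FPKM in Con and missed the threshold (-0.73 ± 0.30, limma adjusted p = 0.0961). Among 26 other reticulum and unfolded protein genes 10 were higher and 2 lower, with Sil1, an exchange factor of BiP, at 38.4 and 63.7 FPKM in KO and 14.5 and 17.4 FPKM in Con, and Pdia3, a disulfide isomerase, at 22.1 and 17.7 FPKM in KO and 60.1 and 59 FPKM in Con. Of 22 cochaperones 6 were higher and 2 lower, with Fkbp4 at 12.4 and 15.8 FPKM in KO and 1.47 and 2.52 FPKM in Con, and the prefoldin subunit Pfdn2, which hands clients to TRiC, at 76.8 and 83.3 FPKM in KO and 185 and 142 FPKM in Con.

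Of the factors, Ddit3 (CHOP) was at 80 and 155 FPKM in KO zygotes, against 28.3 and 37 FPKM in Con zygotes (1.74 ± 0.34, limma adjusted p = 0.00352), and Hsf2 at 9.22 and 8.03 FPKM in KO, against 2.28 and 0.961 FPKM in Con (1.91 ± 0.37, limma adjusted p = 0.00364). Hsf1 (92.5 and 64.7 FPKM in KO, 103 and 84.4 FPKM in Con) and Atf4 (51.5 and 72 FPKM in KO, 96.3 and 54.8 FPKM in Con) overlapped between the genotypes and were not called. Hspb11, which despite its symbol is known as a subunit of intraflagellar transport, was at 16.4 and 12.6 FPKM in KO, against 6.62 and 1.63 FPKM in Con, and was called higher. Mitochondrial Hspa9 was called higher and Hspd1 lower, with Hspe1 at 49.3 and 88.5 FPKM in KO and 52 and 53 FPKM in Con, not called. Dnajb1, the J-domain partner of HSP70 under heat stress, was at 156 and 221 FPKM in KO, against 102 and 108 FPKM in Con, and was higher (0.80 ± 0.23, limma adjusted p = 0.0212). Its relative Dnajb4 was at 146 and 158 FPKM in KO, against 274 and 413 FPKM in Con, and fell by 1.16 (SE 0.23, limma adjusted p = 0.00428). Other J-domain genes that fell were Dnajc17, Dnajc21, Dnajc5b and Dnajc13. The calls of Dnajb1, Dnajc13, Dnajc5b, Dnajc21, Hspa9 and Hspd1 were each lost in 2 or 3 of the fits that left out 1 library, and without Con replicate 1 the number of members lower was 3 in place of 9; the number higher stayed between 16 and 25. Hspa8, Hspa4, Hsph1, Cct4, Cct5, Dnajb11, Ddit3 and Hsf2 kept their calls in all 4. KO zygotes also held the higher summed level of oocyte markers given above, although Bmp15 and Kit were lower in them. The part of these markers in these results was not tested.

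**Figure D3:**
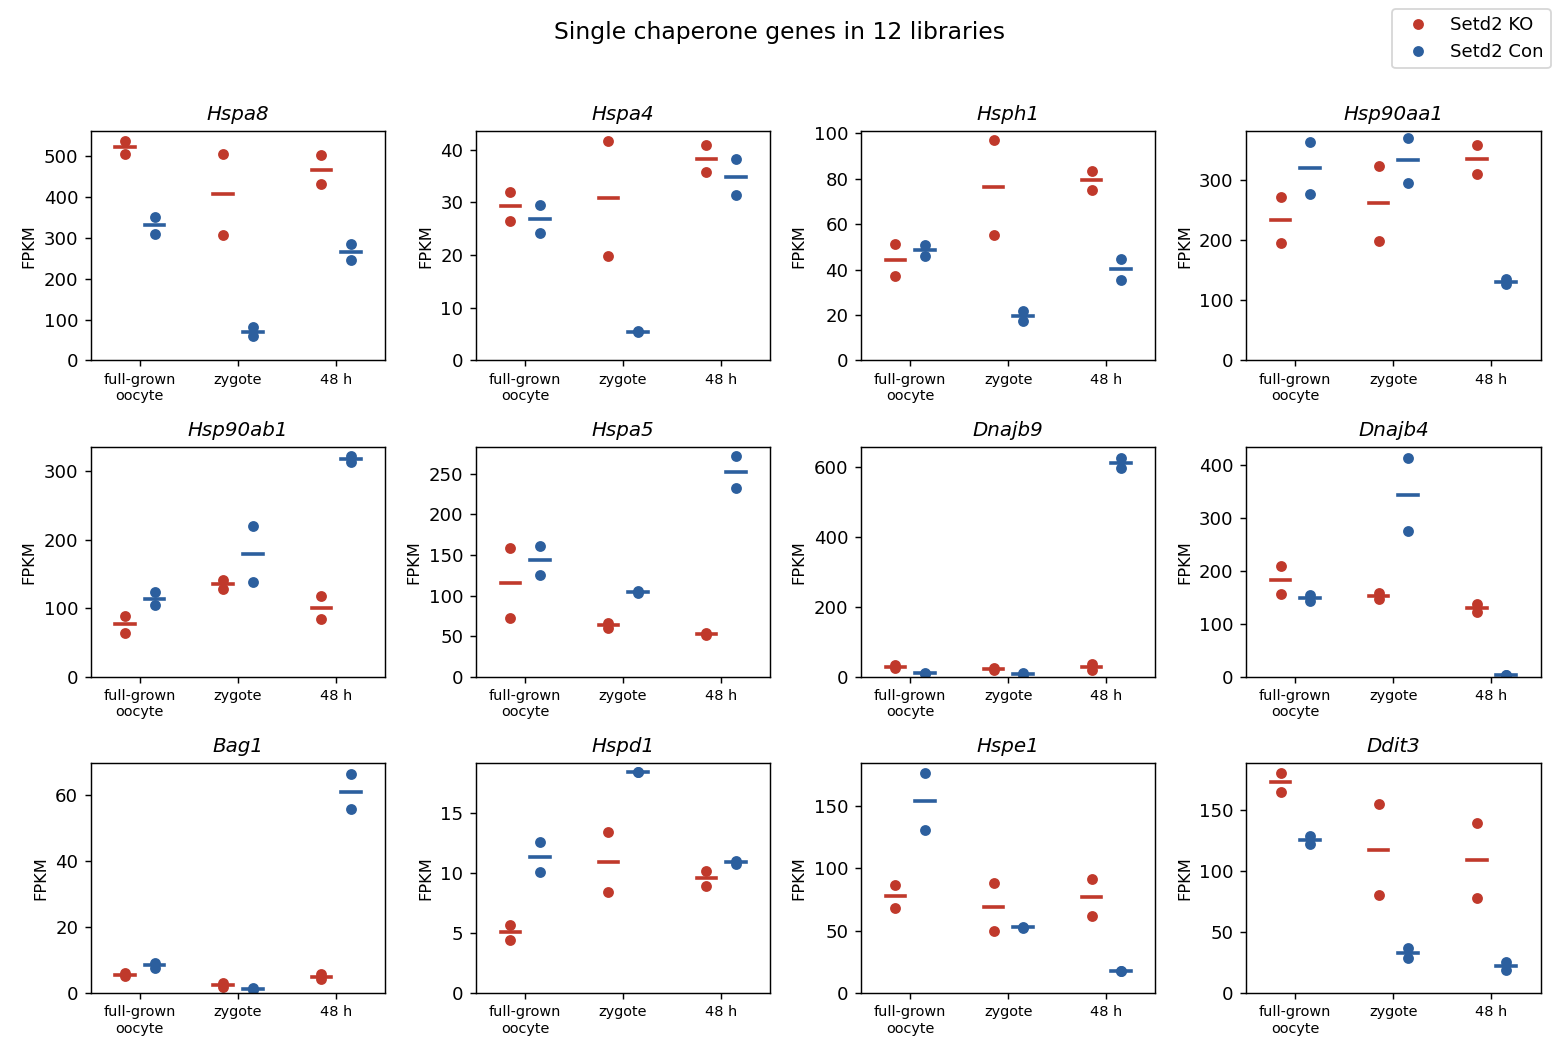
FPKM of 12 members in KO (red) and Con (blue) full-grown oocytes, zygotes and 48 h samples; points are the 2 libraries of a group and bars their mean. Hspa8 in Con zygotes (60.2 and 80.7 FPKM) lies below every other group, and Dnajb9, Bag1, Hspa5 and Hsp90ab1 in Con embryos of 48 h lie above every other library.

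At 48 h the genotypes differed at most chaperone genes, in both directions. Of 78 members 28 rose and 26 fell in the KO, 35.9% and 33.3%, against 43.2% and 30.6% of all genes, so the members' share of calls lay near that of all genes. Relative to all genes the members' median change was -0.42, and rescaling by median ratios gave 19 higher and 36 lower. The 3 2-cell markers found in the table summed to 5.38 and 29 FPKM in KO samples, against 95.2 and 73.7 FPKM in Con embryos. Most of the Con sum was Zfp352, at 65.4 and 50.8 FPKM, against 0.188 and 4.31 FPKM in KO. Zscan4d overlapped between the genotypes, at 3.88 and 16.7 FPKM in KO and 16.6 and 13.2 FPKM in Con. Zscan4c was at 1.31 and 7.91 FPKM in KO and 13.1 and 9.72 FPKM in Con. Neither the part of these markers nor that of the oocyte and granulosa markers was tested. Of the 5 BAG exchange factors tested, 4 fell in the KO and 1 rose. Bag3 is among those that fell, and among zygotes and 48 h samples it reached 1 FPKM only in Con embryos of 48 h. The filter may have kept it through that group alone, so its call is no independent support. Bag1 was at 4.04 and 5.76 FPKM in KO samples, against 55.9 and 66.5 FPKM in Con embryos, and fell by 3.84 (SE 0.28, limma adjusted p = 8.52e-07). Hspbp1 was at 1.35 and 1.62 FPKM in KO, against 55.8 and 56.8 FPKM in Con, and fell by 4.96 (SE 0.35, limma adjusted p = 4.95e-07). Bag3, Bag5 and Bag6 fell as well, Bag3 being at 0 and 0.316 FPKM in KO and 4.51 and 4.16 FPKM in Con, and the call of Bag6 was lost without KO replicate 2. Bag4, a regulator of death receptor signalling, was the exception among the 5 BAG genes tested, at 22.2 and 31.2 FPKM in KO and 4.76 and 2.42 FPKM in Con (2.19 ± 0.30, limma adjusted p = 1.11e-05).

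The HSP70 and HSP90 families divided at 48 h. Hspa14, a ribosome-associated HSP70, was at 67.9 and 69 FPKM in KO samples, against 176 and 191 FPKM in Con embryos, and fell by 1.84 (SE 0.21, limma adjusted p = 0.000107). Hspa1a was at 0.112 and 0.473 FPKM in KO, against 3.09 and 2.92 FPKM in Con, and fell as well, with the limit from Hspa1b given above. Hspa8 was at 501 and 431 FPKM in KO and 285 and 245 FPKM in Con, a rise of 0.38 ± 0.25 (limma adjusted p = 0.0115) that was lost under rescaling, without KO replicate 1 and without Con replicate 2. Hsph1 was likewise called higher and lost under rescaling and without Con replicate 2. The paired cytosolic HSP90 genes moved in opposite directions. Hsp90ab1 was at 83.8 and 118 FPKM in KO, against 323 and 314 FPKM in Con, and fell by 2.10 (SE 0.27, limma adjusted p = 0.000162). Hsp90aa1 was at 358 and 311 FPKM in KO, against 135 and 127 FPKM in Con, and rose by 0.91 (SE 0.26, limma adjusted p = 0.000774). In both the genotypes were well apart, and in Con embryos of 48 h the constitutive form was the more abundant while in KO samples the inducible form was.

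TRiC genes were mostly lower in the KO at 48 h, with 6 of 9 called lower and 1 higher. Cct6b, counted among those lower, has the same limit from the filter as Bag3. Tcp1 was at 82.4 and 68.8 FPKM in KO samples, against 329 and 351 FPKM in Con embryos, and fell by 2.59 (SE 0.20, limma adjusted p = 2.77e-06). Cct6a was at 6.08 and 11.7 FPKM in KO, against 84.4 and 93.4 FPKM in Con, and Cct6b was listed at 0 in both KO libraries and at 3.17 and 3.77 FPKM in Con. Cct8, Cct7 and Cct4 were also lower, and the call of Cct4 was lost without KO replicate 1 and without Con replicate 2. Cct5 was the one higher, at 475 and 420 FPKM in KO and 161 and 168 FPKM in Con (1.00 ± 0.28, limma adjusted p = 0.000712). Cct3, at 270 and 262 FPKM in KO and 280 and 271 FPKM in Con, and Cct2 were not called.

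Reticulum genes showed wide gaps in both directions at 48 h. Dnajb9 was at 17.9 and 35.9 FPKM in KO samples, against 597 and 626 FPKM in Con embryos, and fell by 4.97 (SE 0.38, limma adjusted p = 1.02e-06). Hspa5 was at 54.3 and 51 FPKM in KO, against 272 and 233 FPKM in Con, and fell by 2.67 (SE 0.30, limma adjusted p = 4.82e-05). Dnajc3, which holds the same stress element in its promoter window, went the other way, at 39.9 and 40.5 FPKM in KO and 14.1 and 17.9 FPKM in Con (0.85 ± 0.20, limma adjusted p = 0.000157). Hsp90b1, the third gene with that element, was at 30.1 and 21.5 FPKM in KO and 21.6 and 18.5 FPKM in Con and was not called. Dnajc10, Dnajc1 and Hspa13 rose. Ddit3 was at 78.3 and 140 FPKM in KO, against 25.6 and 18.4 FPKM in Con (1.79 ± 0.34, limma adjusted p = 0.000119). Trib3, a known target of CHOP, was at 0 and 0.204 FPKM in KO, against 10.3 and 11.8 FPKM in Con. It reached 1 FPKM in no other group of the 12 libraries, so its call is no independent support. Other unfolded protein genes went both ways. Chac1, at 7.14 and 8.84 FPKM in KO and 2.83 and 1.56 FPKM in Con, and Atf3 were called higher, and Ppp1r15a was called lower. The output of CHOP was not tested. Atf4 was not called. Of 26 other reticulum and unfolded protein genes 10 rose and 8 fell, with Pdia3 at 22.5 and 18.3 FPKM in KO and 171 and 172 FPKM in Con.

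Among mitochondrial and J-domain members at 48 h, Hspe1 was at 61.8 and 91.6 FPKM in KO samples, against 17.6 and 17.2 FPKM in Con embryos (1.62 ± 0.29, limma adjusted p = 7.02e-05). Its partner Hspd1, which is known to share a promoter region with it, was at 8.93 and 10.2 FPKM in KO and 10.8 and 11 FPKM in Con and was not called. Dnajc15 was at 28.6 and 28.4 FPKM in KO, against 301 and 358 FPKM in Con, and fell by 3.91 (SE 0.33, limma adjusted p = 2.62e-06). Of the 30 other J-domain genes tested 12 rose and 7 fell. Dnajb4 was at 138 and 122 FPKM in KO, against 2.33 and 2.62 FPKM in Con (4.80 ± 0.23, limma adjusted p = 9.95e-09). Dnajc14 was at 78.6 and 104 FPKM in KO, against 3.62 and 3.49 FPKM in Con (3.89 ± 0.27, limma adjusted p = 1.12e-07), and Dnajc11, a J-domain protein at the mitochondrial cristae junction, at 83.7 and 113 FPKM in KO, against 5.55 and 6.74 FPKM in Con. Dnajc5b, Dnaja4, Dnaja1 and Dnajb1 rose too. Dnajc12 was at 0.203 and 0 FPKM in KO, against 47.2 and 74.8 FPKM in Con, and Dnajb14 at 2.34 and 3.21 FPKM in KO, against 92.4 and 93.3 FPKM in Con. Dnajc21, known for its part in ribosome assembly, fell as well. Hsf1 was at 74.5 and 55.6 FPKM in KO and 32.1 and 39.3 FPKM in Con, a rise whose call was lost under rescaling and without KO replicate 1 or Con replicate 1, and Hspb1 (HSP27) likewise lost its call under rescaling and in 3 of 4 fits without a library. Of the 22 cochaperones 6 rose and 8 fell, with the prefoldin subunits apart, Pfdn4 at 389 and 628 FPKM in KO and 29.2 and 43.8 FPKM in Con, and Pfdn2 at 93.7 and 98.4 FPKM in KO and 414 and 454 FPKM in Con.

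**Figure D4:**
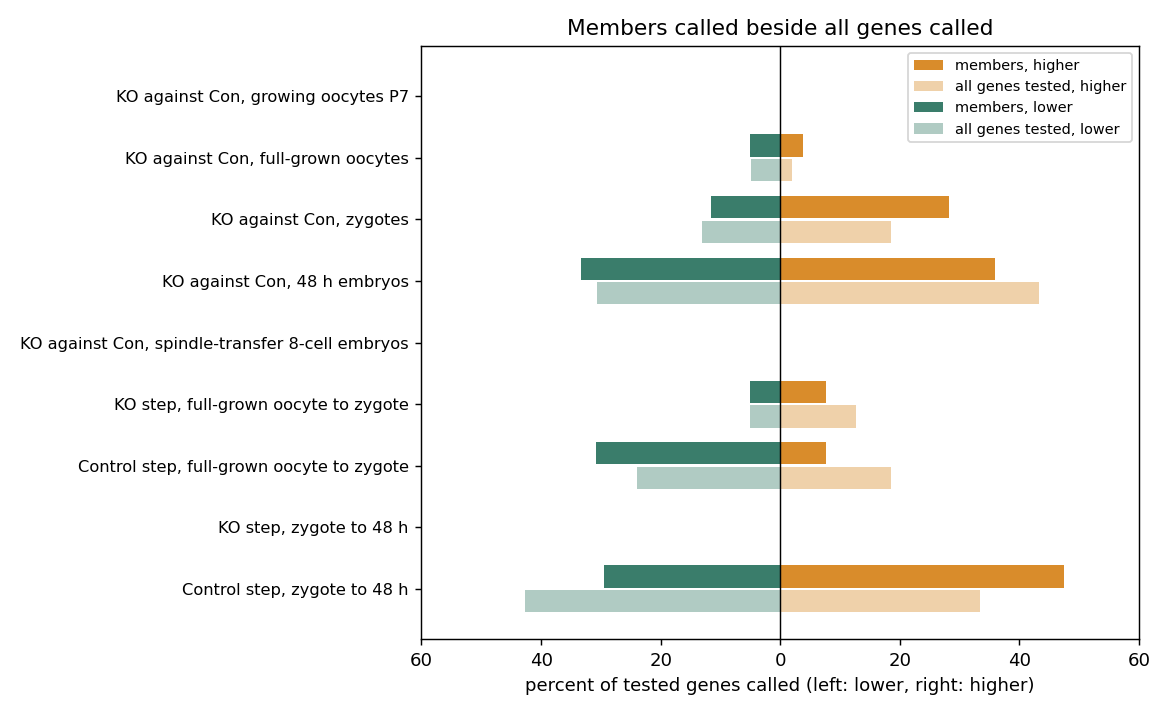
Share of tested genes called by limma in each comparison (lower to the left, higher to the right), for the members (dark bars) and for all genes tested (pale bars). Members exceed all genes in the higher direction in zygotes (28.2% against 18.5%) and in the control step from zygote to 48 h (47.4% against 33.4%), and at P7, in 8-cell embryos and in the KO step from zygote to 48 h 0 members were called.

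The 48 h difference can be set against each genotype's own course. In the KO, limma called 0 of 78 members between zygote and 48 h, with 0.139% of all genes higher and 0.0656% lower, and 5 members had an unadjusted p under 0.05, as had 1240 of all 12199 genes; without zygote KO replicate 2, 2 members were called higher. Over the same interval 60 members were called in control, where 76.1% of all genes were. Before the median of all genes was subtracted, 4 members changed by more than 1 on the log2 scale in the KO and 48 in control. The share of all genes past that size was not counted, so these counts are no result about the members. Dnajb9 was at 17.9 and 35.9 FPKM in KO samples of 48 h, against 18.5 and 25.2 FPKM in KO zygotes, and Dnajb4 at 138 and 122 FPKM, against 146 and 158 FPKM. The largest change in the KO was that of Dnajc5b, a relative of the synaptic cysteine string protein, at 16.1 and 14.8 FPKM at 48 h, against 3.88 and 6.36 FPKM in zygotes (1.44 ± 0.29, limma adjusted p = 0.109). The steps share their zygote libraries with the zygote comparison. The test of the difference of the steps called 21 members higher and 29 lower (36.7% and 29.5% of all genes), and 15 higher and 37 lower after rescaling. TRiC genes made up 7 of the 29 lower and 0 of the 21 higher. Dnajb9 had the most negative difference, -6.29 ± 0.53 (limma adjusted p = 4.04e-06), and Dnajb4 the most positive, 6.02 ± 0.32 (limma adjusted p = 1.57e-07).

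**Figure D5:**
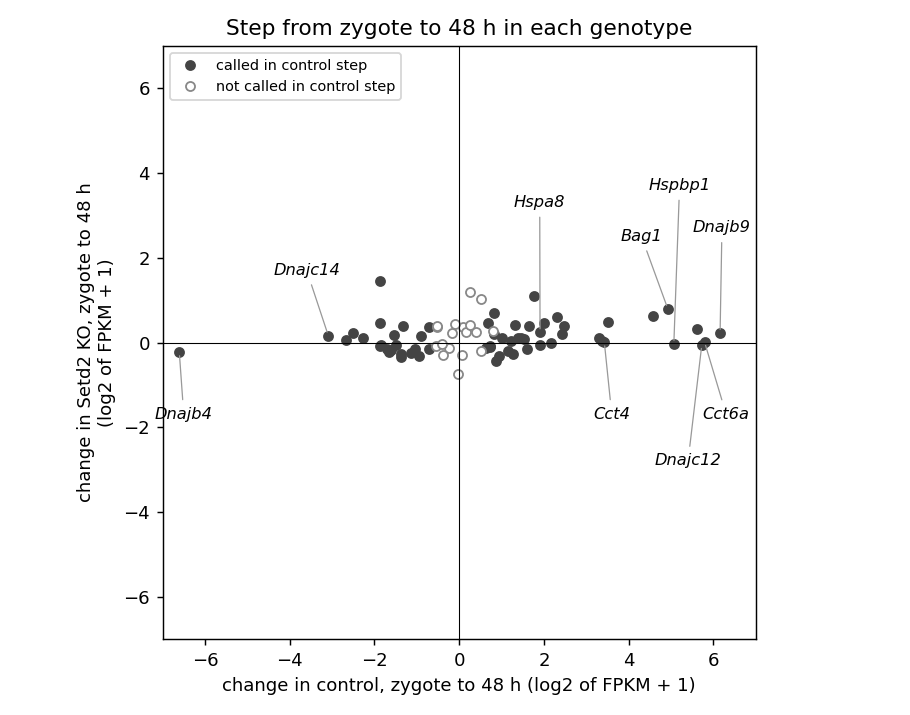
Change between zygote and 48 h of each of the 78 members tested, in control (horizontal) and KO (vertical), on the log2 scale of FPKM + 1 with equal axes. Filled points were called in control. The median of all genes is not subtracted here, unlike in the text. Points spread from -6.61 to 6.16 in control and from -0.73 to 1.46 in the KO.

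Between full-grown oocyte and zygote 12.8% of the members were called in the KO, against 38.5% in control, and among all genes the shares were 17.7% in the KO and 42.5% in control. 6 members rose and 4 fell in the KO, where 12.6% and 5.10% of all genes did, and rescaling gave 2 higher and 9 lower. Leaving out FGO KO replicate 1 gave 0 higher and 2 lower, and leaving out zygote KO replicate 1 or FGO KO replicate 2 gave 3 higher and 1 lower in each, while leaving out zygote KO replicate 2 gave 15 lower. Dnaja2, a class A J-domain protein, was at 97.7 and 87.9 FPKM in KO zygotes, against 38.4 and 49.9 FPKM in KO full-grown oocytes (0.97 ± 0.21, limma adjusted p = 0.00847), and it rose in control as well. Cct5 and Cct2 fell in both genotypes. The difference of these steps was called for 11 members higher and 1 lower (8.29% and 1.10% of all genes, 9.39% in either direction), and for 8 and 2 after rescaling. Those higher in the KO included Cct5, Cct4, Tcp1, Hspa8, Hspa4, Hsph1, Dnajb11, Dnajc10 and Hspb11; the call of Hspb11 was lost without 7 of the 8 libraries left out in turn. Hspa8 was at 306 and 505 FPKM in KO zygotes, against 504 and 537 FPKM in KO oocytes, and at 60.2 and 80.7 FPKM in Con zygotes, against 351 and 309 FPKM in Con oocytes, a difference of 1.62 ± 0.35 (limma adjusted p = 0.0105). The 1 lower was Dnajb4. The number higher was 19 without zygote KO replicate 1, 4 without FGO KO replicate 1 and 5 without FGO Con replicate 2; Hspa8 lost its call without FGO KO replicate 1, and Hspa4, Hsph1 and Tcp1 without that library or FGO Con replicate 2.

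In 8-cell embryos limma called 0 of the 72 members tested and 0% of all genes, with 9 members at an unadjusted p under 0.05, as were 1243 of all 9398 genes. Without Con replicate 1 or without Con replicate 2, 1 member was called lower. Hspe1 and Hspa5 were at the smallest adjusted p among the members. Hspe1 was at 131 and 228 FPKM in KO embryos, against 56.3 and 66.2 FPKM in Con embryos (1.56 ± 0.28, limma adjusted p = 0.159), and Hspd1 at 101 and 115 FPKM in KO, against 68.2 and 66.1 FPKM in Con. Hspa5 was at 113 and 104 FPKM in KO, against 376 and 219 FPKM in Con (-1.32 ± 0.27, limma adjusted p = 0.159). Hspa8, the most abundant member, was at 2378 and 2490 FPKM in KO, against 3433 and 3186 FPKM in Con. In these 4 selected members the genotypes did not overlap, but limma called 0 members, and the share of all genes without overlap was not counted. Hspb11 stood at 295 FPKM in Con replicate 2 and 36.6 FPKM in Con replicate 1, with 45.1 and 29.5 FPKM in KO. The 8-cell markers summed to 196 and 193 FPKM in KO and 328 and 224 FPKM in Con. Among them Nanog was at 24.4 and 22.6 FPKM in KO and 132 and 52.2 FPKM in Con. Tfap2c went the other way, at 74.0 and 69.7 FPKM in KO and 57.8 and 47.2 FPKM in Con. The oocyte markers summed to 50.9 and 58.5 FPKM in KO and 22.9 and 22.7 FPKM in Con. The part of these markers was not tested.

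The Dnmt3l pair has 1 library per group and no test. Of the 45 members that reached 10 FPKM in one library or both, 0 differed by 2-fold or more, against 1.24% of all genes with that minimum, and their log2 ratios ran between -0.6 and 0.89. The upper end was Hsp90aa1, at 386 FPKM in KO and 207 FPKM in Con. Hspa8 was at 269 FPKM in KO and 273 FPKM in Con, and Hspa5 at 138 FPKM in KO and 96.4 FPKM in Con. Both columns are named as merged, so each may hold several runs. Full-grown oocytes of the pair and of the Setd2 groups, normalized separately, differed in some members: Hsf2 was at 90.3 FPKM in Dnmt3l KO and 62.8 FPKM in Dnmt3l Con, and between 2.25 and 5.49 FPKM in the 4 Setd2 libraries.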

How the data were processed

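RNA-seq libraries were made with Smart-seq2, per the labels' protocols. The authors deposited FPKM values per gene in 4 tables, and per the submitters' processing notes the build was mm9 and the tools included Cufflinks 2.0.2 and TopHat2 2.0.11; roles and settings are not given in the sources used here. No counts were used, and depth was estimated from the smallest steps between low FPKM values. Groups came from the labels. Values were tested as log2(FPKM + 1) with limma 3.58.1 in R 4.3.3 (group means, empirical Bayes with a trend, Benjamini-Hochberg adjustment over all genes tested, threshold 0.05), in genes that reached 1 FPKM in 2 or more libraries of their table, and the 12 libraries of the largest table were fitted together. With 2 against 2 libraries an exact permutation test cannot go below p = 0.33. The fit was tested on simulated data. Figures were drawn with matplotlib 3.10.9 in Python 3.11.15. The members and lists were chosen with earlier results of these data known, and the KO steps were added after values were seen. Genes named are a set list of major chaperones and factors and, per comparison and direction, up to 10 called members with the largest change, no overlap between groups and, where expression was higher, a group mean of 5 FPKM or more; for a difference of steps, overlap was judged between KO and Con at the later stage. Up to 4 called genes of the other pathway lists with the smallest adjusted p were added per comparison. Hspa14, Creld2, Dnajc5b in the KO step and Hspb11 in 8-cell embryos were also named after their values were seen, where outside that rule. So were Dnajc5g, Dnajc16 and Hspb6 in P7 oocytes, and those genes given without values that lie outside that rule. Alternatives were a pseudocount of 0.1, no filter, rescaling by median ratios, the compared groups alone, a replicate block and leaving out each library.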

Additional observations from a re-analysis of the deposited data

Results flagged for a closer look

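The step taken between stages differed between KO and control by a test of the difference itself (limma, adjusted over all genes), and the values here are KO step minus control step on the log2 scale, relative to the median of all genes. Between full-grown oocyte and zygote 12 of 78 members differed, 15.4%, against 9.39% of all genes. Leaving out 1 library moved the number of members higher between 4 and 19, and 4 of the 10 calls named here held in every alternative. Among J-domain and other members Hspb11 differed by 2.16, Dnajb11 by 2.09 and Dnajc10 by 1.76. Among TRiC subunits Cct5 differed by 2.04, Cct4 by 1.64 and Tcp1 by 1.18. Among HSP70 and HSP110 genes Hspa4 differed by 1.89, Hsph1 by 1.82 and Hspa8 by 1.62. Dnajb4 was the member with a negative difference, at -1.63. The call of Hspb11 was lost without 7 of the 8 libraries left out in turn.

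Between zygote and 48 h 50 of 78 members differed, 64.1%, against 66.2% of all genes. Positive differences were 6.02 for Dnajb4, 2.97 for Dnajc5b, 2.89 for Dnajc14, 2.38 for Dnajc11, 2.37 for Dnaja4, 2.04 for Bag4, 1.97 for Hspa4l, 1.41 for Dnajc1, 1.36 for Hspe1 and 1.36 for Hsp90aa1. Negative differences were -6.29 for Dnajb9, -6.14 for Dnajc12, -6.14 for Cct6a, -5.66 for Dnajb14, -5.46 for Hspbp1, -4.48 for Bag1, -4.31 for Dnajc15, -3.78 for Cct4, -3.70 for Bag5 and -3.56 for Tcp1. KO samples of 48 h were labelled 1C and Con samples 2C, so genotype and cell stage cannot be told apart in these values.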

How the results depend on the processing

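Of 185 named calls followed through the alternatives, 138 held in each of them and 0 reversed. In full-grown oocytes (3 members higher, 4 lower) the counts were 2 lower at a pseudocount of 0.1, 1 higher and 2 lower without the filter, 1 lower after rescaling, and 6 higher and 15 lower with the compared groups alone; leaving out each library gave 0 higher and 0 to 1 lower. In zygotes 5 were lower with the groups alone, and leaving out each library gave 16 to 25 higher and 3 to 9 lower. At 48 h those ranges were 21 to 24 and 19 to 27, and in 8-cell embryos 0 and 0 to 1. For the control steps they were 5 to 8 higher and 19 to 23 lower, then 26 to 35 and 20 to 23. For the difference of steps between full-grown oocyte and zygote, no filter gave 0 lower and rescaling 2 lower, with 4 to 19 higher and 0 to 2 lower without a library; for that between zygote and 48 h the ranges were 15 to 23 and 21 to 31. For the KO step between full-grown oocyte and zygote, no filter gave 2 lower, rescaling 2 higher and 9 lower, and leaving out each library 0 to 6 higher and 1 to 15 lower; for that between zygote and 48 h, 0 to 2 higher and 0 lower. The replicate block gave 1 member lower at P7, against 0 without it, and 3 higher and 5 lower in full-grown oocytes; no other count moved past 1.5 times. Same-numbered libraries shared little (correlation of deviations 0.0416 for P7, 0.186 for full-grown oocytes, 0.0742 for zygotes, 0.00244 for 48 h and 0.0724 for 8-cell samples), so the numbers were not taken as pairs. In fits without a library the lone sample is assumed to vary like the other groups. The cause of these shifts was not tested. The number of libraries, 2 per group, limits the precision of every value.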
